A study of Mus musculus with 3 samples.

Results

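CTCFL peaks at CpG-poor one-way promoters are regions listed as bound by the testis paralog of CTCF. They lie at start sites that face in 1 direction, with low CpG or GC around the peak center. A peak was placed in this class when its center lay within -2 kb to +1 kb of a protein-coding transcription start site (TSS), when no TSS in that reach was part of a divergent pair of genes at most 1 kb apart, and when GC content was under 55% or the ratio of observed to expected CpG was under 0.6 in the 250 bp on either side of the center. Of the 7436 CTCFL peaks of the list, 903 met the rule. The other promoter peaks were 1275 at CpG-rich one-way promoters and 166 at bidirectional promoters, and 5092 peaks lay outside promoters. Neither peak width, the consensus sequence and its strand nor gene function was used by the rule. The list is longer than the set of CTCFL sites that the study counts, so the peaks described here are not that set.

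CTCF is a zinc finger protein that organizes chromatin loops and insulates genes in nearly all cells, and CTCFL, also called BORIS, shares its zinc finger domain but is normally made in male germ cells. CpG dinucleotides are depleted from most of the mammalian genome because methylated cytosine mutates readily, and CpG islands escape this loss. Promoters with islands tend to belong to broadly expressed genes, whereas CpG-poor promoters are often found at genes with tissue-restricted expression and are more often methylated.

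The peaks come from mouse embryonic stem (ES) cells with a ROSA26-rtTA driver and a doxycycline-responsive transgene for CTCFL with V5 and GFP tags, from which transgenic clones had been selected, so that CTCFL was made outside its normal cell type. In the group used here the cells were given doxycycline for 3 days, GFP-positive cells were sorted, and CTCFL was precipitated with an antibody against V5. Cells of the same kind that were neither induced nor sorted were the V5 control, and a CTCF precipitation was made as well, but the libraries of these other groups were not analysed here. There was 1 library per condition, so the errors given are 95% intervals of counts over peaks or genes (Wilson for a share, Newcombe for a difference) and do not cover the spread between cultures. The list holds positions on mm9 and no read number, so the depth behind a peak is unknown. Sites shared with CTCF were not set apart.

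To see what the sites look like, a consensus was learned from the 5092 peaks outside promoters and thus from none of the 903. It read CCNNNAGGGGGC, in which N is any base and 9 of 12 positions are fixed, each holding its base in at least 60% of the 3471 aligned sites. It is the core of the sequence known for CTCF. The stretches below are from the mm9 genome, 5′ to 3′ on the strand of the match, with the best match in capitals, and 9 bases are given on either side where more would enter an untranslated exon. The first set shows sites without a mismatch.
Sycp2: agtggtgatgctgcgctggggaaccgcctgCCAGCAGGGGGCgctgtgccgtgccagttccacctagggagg
Sorcs2: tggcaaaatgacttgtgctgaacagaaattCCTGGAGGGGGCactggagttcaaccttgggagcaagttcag
Prss41: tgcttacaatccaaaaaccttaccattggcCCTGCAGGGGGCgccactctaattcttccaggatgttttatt
Prss57: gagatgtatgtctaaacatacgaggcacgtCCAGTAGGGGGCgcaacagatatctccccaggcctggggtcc
Trappc5: cgagaggggCCGCAAGGGGGCgcccgtgtc
These stretches lie at chr2:178142418-178142489 (plus strand), chr5:36741771-36741842 (minus), chr17:23980276-23980347 (minus), chr10:79246806-79246877 (minus) and chr8:3676370-3676399 (minus). The bases at the free positions differed between them. The match was followed directly by g at Sycp2, Prss41, Prss57 and Trappc5, which makes a CpG with its last base, and by another base at Sorcs2.

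The second set shows sites with 1 mismatch, which are the larger part of all matches. Position 1 is the first C of the consensus, and in each token the base of the consensus is given first.
Hjurp: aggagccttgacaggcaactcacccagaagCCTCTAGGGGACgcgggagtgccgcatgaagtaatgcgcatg
Syce2: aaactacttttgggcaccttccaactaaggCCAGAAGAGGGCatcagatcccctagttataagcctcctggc
Tex19.1: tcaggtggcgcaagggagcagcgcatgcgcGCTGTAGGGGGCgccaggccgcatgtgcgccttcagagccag
Tet1: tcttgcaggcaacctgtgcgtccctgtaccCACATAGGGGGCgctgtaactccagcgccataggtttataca
Prss48: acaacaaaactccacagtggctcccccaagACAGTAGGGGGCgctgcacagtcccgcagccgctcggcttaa
Odf2: ccgagtgcgCCGCCAGGAGGCaggtggagg
Hjurp differed from the consensus by G11A, Syce2 by G8A, Tex19.1 by C1G, Tet1 by C2A, Prss48 by C1A and Odf2 by G9A. They lie at chr1:90174249-90174320 (minus strand), chr8:87395427-87395498 (minus), chr11:121007266-121007337 (plus), chr10:62344099-62344170 (plus), chr3:85806568-85806639 (minus) and chr2:29746203-29746232 (minus).

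The 903 peaks were heterogeneous in base composition. The CpG criterion alone was met by 343, the GC criterion alone by 146 and both by 414. GC content had a median of 53.5% (range 34.1 to 71.1%) and observed/expected CpG a median of 0.472 (range 0 to 1.08). In the plot of both measures the peaks formed 1 continuous cloud with the CpG-rich peaks, without a gap at either threshold. Just inside the GC threshold were the peaks at Mad1l1, a spindle checkpoint gene, and Ptpn21, a tyrosine phosphatase gene, both with 54.9% GC, and just outside were those at Cnih and Dact3 with 55.1%. Just inside the CpG threshold were the peaks at Nrtn, a GDNF family ligand gene (0.5997), and the autophagy-related gene Atg16l2 (0.5992), and just outside was that at the calpain gene Capn5 (0.6002).

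**Figure D1:**
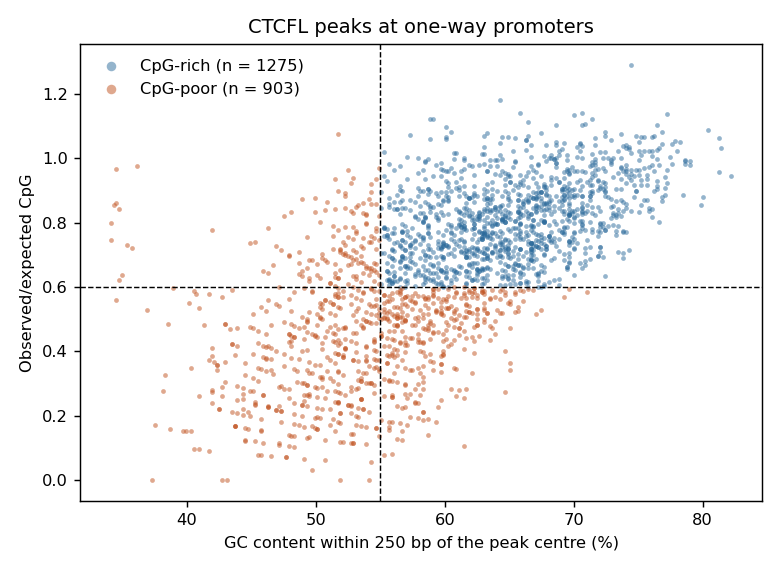
GC content (x axis, %) and observed/expected CpG (y axis, ratio) within 250 bp of the center of each one-way promoter peak, 1 point per peak, with dashed lines at the thresholds of 55% and 0.6. The 903 CpG-poor peaks (orange) adjoin the 1275 CpG-rich peaks (blue) along both thresholds.

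There were 5 peaks without a single CpG within 250 bp of the center, and these are named after their values were seen. They lay at 4931408C20Rik, at Aanat, whose product catalyzes a step of melatonin synthesis, at the metallopeptidase gene Amz1, at the ETS factor gene Etv1 and at the fumarate hydratase gene Fh1. The Amz1 peak held the consensus without mismatch, and those at Aanat and Fh1 held it with 1. Those at Etv1 and 4931408C20Rik had no match at up to 1 mismatch. The TSS of Fh1 itself had an observed/expected CpG of 0.898, with the peak center 596 bp upstream of it, whereas the TSS of Etv1 had 0.0427 with the center 62 bp upstream.

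Most of the peaks held the consensus. At up to 1 mismatch on either strand it was found in 611 of 903 peaks (67.7%, 64.5 to 70.6%), against 255 of 1806 windows of the same widths 2 kb to either side (14.1%, 12.6 to 15.8%). The shares differed by 53.5 points (two-sided Fisher's exact test, Benjamini-Hochberg adjusted p = 1.59e-172 over 7 tests). The test took peaks and windows as independent although each window belongs to a peak. The windows were not matched to the peaks for GC content. Without mismatch it was found in 181 of 903 peaks and in 11 flanking windows (0.609%). At up to 2 mismatches a match was found in 96.6% of the peaks but also in 64.1% of the windows beside them. The best match lay close to the middle of the peak, with a median of 47 bp between both centers and 322 of 611 within 50 bp. Among equally good matches the one nearest the peak center was taken, which shortens this distance.

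With the main settings, the share with the consensus did not differ past the threshold of the test between CpG-poor and CpG-rich promoter peaks. The CpG-rich peaks had a match in 904 of 1275 (70.9%), a difference of -3.24 points for CpG-poor minus CpG-rich peaks (-7.19 to 0.678; Fisher's exact test, two-sided, adjusted p = 0.126), and their flanking windows had one in 12.7%. The lower bound of the interval leaves room for a smaller share in the CpG-poor peaks. The consensus is mostly G and C, which the rule reads at the same place, so the test cannot separate sites from base composition. The flanking windows do not correct for this. Mean GC content fell from 68.5% in the 100 bp that begin at the center to 45.5% from -1500 to -1401 bp in the CpG-rich peaks. In the CpG-poor peaks it fell from 55.7 to 46.3%. Within 250 bp of the TSS, a restriction added after the data were seen, the shares were 63.8 and 71.2% and the difference was -7.42 points (Fisher's exact test, p = 0.0187, unadjusted). In the central 200 bp of the peaks and without mismatch the sign was the opposite, at 2.73 (Fisher's exact test, p = 0.222) and 2.40 points (p = 0.163). CpG-rich peaks were wider, and 24.9% of them held 2 or more matches against 16.7% of the CpG-poor peaks.

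**Figure D2:**
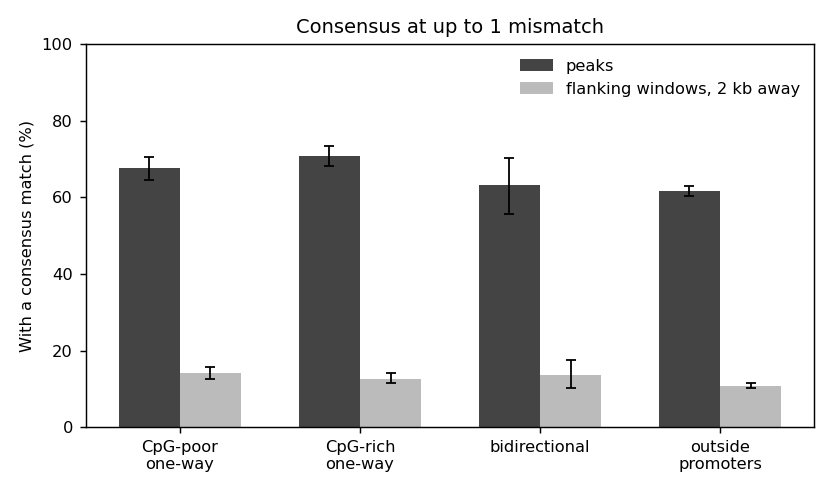
Share of peaks (dark bars, %) and of windows of equal width 2 kb to either side (light bars) with the consensus at up to 1 mismatch, for the 4 classes of peaks, with 95% Wilson intervals. The bars of the peaks stand between 61.6 and 70.9% and those of the flanking windows between 10.9 and 14.1%. The windows were not matched to the peaks for GC content.

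The base composition of the matches differed between the classes from position to position. This is a description without a test, because the rule reads G, C and CpG. Among matches without mismatch, A stood at the free position 3 in 45.3% of 181 CpG-poor peaks, 21.8% of 225 CpG-rich peaks and 56.6% of 1061 peaks outside promoters. The base after the match, position 13, was G in 54.1, 77.8 and 47.6%. At both positions the CpG-poor peaks lay between the other classes, but at others they did not. The base before the match was G in 34.3, 51.1 and 39.7%, and position 14 was C in 47.0, 59.6 and 50.6%, so that the CpG-poor peaks had the lowest share at both. Among matches with 1 mismatch the most frequent substitution was G8A in these 3 classes, with 105 of 430 (24.4%) in the CpG-poor, 11.0% in the CpG-rich and 30.6% in the peaks outside promoters. G9T made up 11.6, 6.19 and 14.6%. At bidirectional promoters C1G was the most frequent, with 13 of 87 (14.9%), and G8A made up 10.3%. The site at Syce2 shown above is an example of G8A.

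CpG-poor promoter peaks lay farther from the TSS than CpG-rich ones. CpG islands lie on start sites, so a class read from the CpG content at the center is tied to this distance, and the positions are given as a description with no test. The center lay within 250 bp of the nearest TSS in 290 of 903 (32.1%, 29.2 to 35.2%) and in 865 of 1275 CpG-rich peaks (67.8%, 65.2 to 70.4%), a difference of -35.7 points (-39.6 to -31.7). The median position was -207 bp against -8 bp. Upstream centers made up 69.3% (626 peaks) against 52.2%, and centers over 1000 bp upstream 16.9% (153) against 2.27% (29). The reach of the rule is itself 2 kb upstream and 1 kb downstream. The 200 bp just upstream of the TSS still held the most CpG-poor peaks of any 200-bp bin, at 171 (18.9%), and the 200 bp just downstream held 74 (8.19%). Both of these bins were higher for the CpG-rich peaks, at 35.3 and 24.9%.

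**Figure D3:**
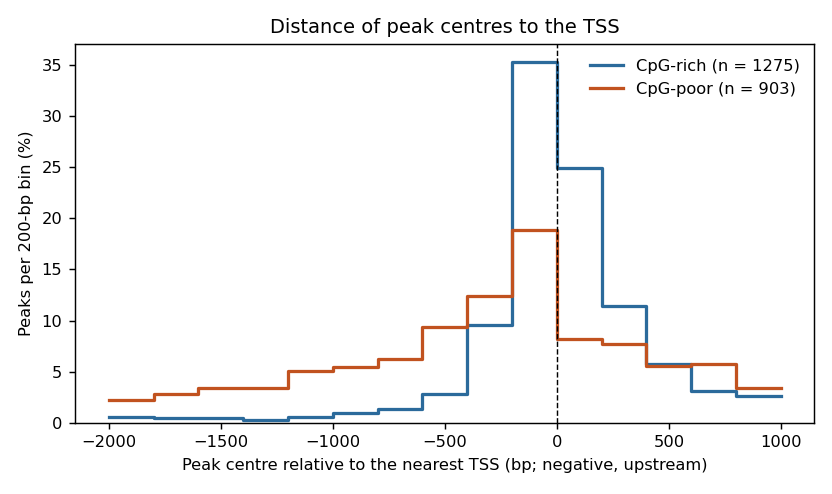
Position of the peak center relative to the nearest TSS (x axis, bp, upstream negative) and the share of peaks per 200-bp bin (y axis, %) for CpG-poor (orange, n = 903) and CpG-rich (blue, n = 1275) one-way promoter peaks. The CpG-rich curve reaches 35.3% just upstream of the TSS, and the CpG-poor curve reaches 18.9% there and stays above the CpG-rich curve in each bin from -2000 to -200 bp.

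A CpG-poor site of binding did not always mean a CpG-poor start site. With the same thresholds applied around the TSS, 477 of 903 nearest TSSs were CpG-poor (52.8%, 49.6 to 56.1%) and 426 were CpG-rich. Both windows overlap where center and TSS are close, so the share was 70.3% for centers within 250 bp (204 of 290) and 44.5% for those farther away (273 of 613). Where the TSS was CpG-rich the center had a median position of -342.5 bp and lay upstream in 77.2% (329 of 426). Where it was CpG-poor the median was -88 bp, and 62.3% lay upstream. Taking only peaks whose TSS was of the class of the peak, 42.8% of CpG-poor and 71.0% of CpG-rich peaks lay within 250 bp of it, a difference of -28.3 points (-33.3 to -23.1). The consensus was found in 66.2% of the peaks at CpG-poor TSSs and in 69.2% of those at CpG-rich TSSs, with overlapping intervals (61.9 to 70.3% and 64.7 to 73.4%).

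Around the 903 centers CpG content was lower on the upstream side and rose toward the gene. Pooled over the peaks and oriented by the gene, observed/expected CpG was 0.269 in the outermost 100 bp upstream, 0.462 in the 100 bp that begin at the center and 0.558 from 300 to 399 bp on the side of the gene, and then fell to 0.407 at the outermost 100 bp. The CpG-rich peaks had a nearly symmetric profile with its maximum of 0.849 at the center and 0.267 and 0.323 at the ends. The rule reads GC and CpG within 250 bp of the center, so the contrast between the classes there follows from it. Centers lay upstream of the TSS in 69.3% of the CpG-poor peaks, and the profiles were not matched for this position. Mean GC content of the CpG-poor peaks was highest at the center (55.7%).

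**Figure D4:**
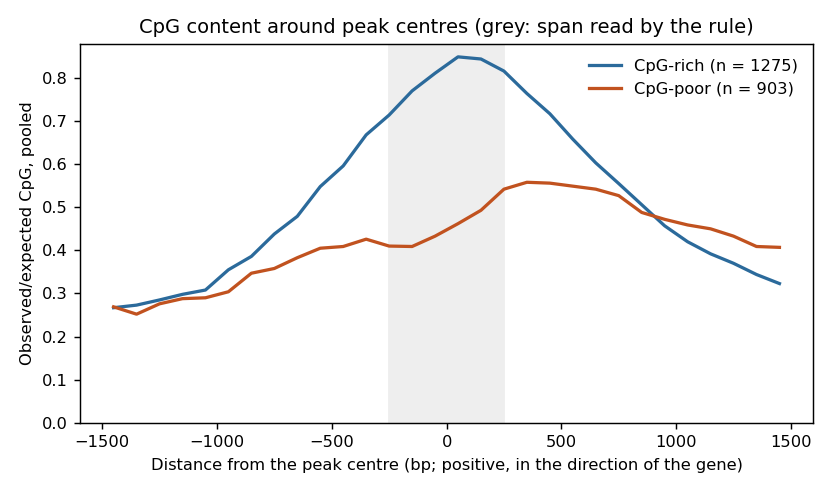
Observed/expected CpG (y axis, ratio, pooled over peaks per 100 bp) by distance from the peak center (x axis, bp, positive toward the gene) for CpG-poor (orange) and CpG-rich (blue) one-way promoter peaks, with the span read by the rule in grey. The CpG-rich curve peaks at 0.849 at the center, and the CpG-poor curve peaks at 0.558 on the side of the gene, outside the grey span.

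By position in protein-coding genes, 487 centers lay outside genes (53.9%), 280 in introns (31.0%), 71 in 5′ UTRs (7.86%), 49 in coding exons (5.43%) and 16 in 3′ UTRs (1.77%). For the CpG-rich peaks 5′ UTRs (24.2%) and coding exons (12.6%) took larger shares and introns a smaller one (22.2%), and these shares were not tested because the distance to the TSS differed. The nearest TSS was the 5′-most start of its gene in 74.0% of CpG-poor and 71.1% of CpG-rich peaks, a difference of 2.84 points that did not pass the test (-0.985 to 6.59; Fisher's exact test, two-sided, adjusted p = 0.159). Among peaks whose TSS was of their own class, an alternative added after the data were seen, the direction turned, with -5.64 points (Fisher's exact test, p = 0.0246, unadjusted).

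The peaks were narrower than those at CpG-rich promoters. The median width was 481 bp (range 171 to 1958 bp) against 539 bp, with 526.5 bp at bidirectional promoters and 425 bp outside promoters. At or above the median width of all peaks, 454 bp, were 507 of 903 (56.1%) against 904 of 1275 (70.9%), a difference of -14.8 points (-18.8 to -10.7; Fisher's exact test, two-sided, adjusted p = 2.66e-12). Among centers within 250 bp of the TSS the shares were 60.0 and 70.8%, a difference of -10.8 points. Width is the only measure per peak in the list, and it is neither a height nor a read number.

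The match tended to run in the direction of the gene. Of 611 matches 346 had the strand of the gene (56.6%, 52.7 to 60.5%; exact binomial test against an equal share, two-sided, adjusted p = 0.00167). The equal share takes the bases to be alike on both strands. The strand of matches in the flanking windows was not counted. The test therefore cannot separate oriented sites from a difference in bases between the strands. The share was 62.7% (116 of 185) within 250 bp of the TSS and 46.4% (52 of 112) over 1000 bp upstream, and no test of that difference was made. With matches free of mismatch the share was 56.4%, but this did not pass the test (p = 0.102, unadjusted, n = 181). The CpG-rich peaks also had 56.6% (512 of 904), so the tilt was not particular to CpG-poor promoters. At bidirectional promoters 48.6% of 105 matches had the strand of the nearest gene.

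The widest of the 903 peaks was at Hjurp, whose product loads the centromeric histone CENP-A (chr1:90173401-90175358, 1958 bp, rank 10 of all peaks by width). Its center was 172 bp upstream of the TSS, GC was 47.5%, and observed/expected CpG was 0.821, so it was a member by GC alone. Next in mostly unique sequence were 4931408C20Rik (1667 bp, without CpG) and Sorcs2, a gene for a sortilin-related receptor (chr5:36740583-36742085, 1503 bp, center 546 bp upstream). The Sorcs2 peak held 4 matches at up to 1 mismatch. The peak at Sap25, a gene for a protein of the Sin3 corepressor (1266 bp), held 5, and its center lay 99 bp downstream of the TSS. Gm16499 (1293 bp) held 2, and the peak at Naaa, which encodes a lipid amidase (1069 bp), held none at up to 1 mismatch.

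The other 4 of the 10 widest peaks lay in repeated sequence. Only 12.5% of the 36-base windows were unique in the genome in the peak at Gm11168 (1752 bp), 24.5% at Gm10722 (1640 bp), 44.5% at Gm10800 (1283 bp) and 29.2% at Gm10715 (1072 bp), and all had 34.1 to 36.1% GC. These genes carry provisional names. The 72 bases around the best match at Gm10722 and Gm10800, which have 2 mismatches each, are shown because they are nearly alike although they lie on different chromosomes, with 68 of 72 bases equal.
Gm10722: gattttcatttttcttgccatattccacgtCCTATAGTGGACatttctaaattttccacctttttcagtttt
Gm10800: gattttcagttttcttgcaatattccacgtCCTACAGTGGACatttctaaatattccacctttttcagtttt
They lie at chr9:3000734-3000805 (plus strand) and chr2:98506884-98506955 (minus). Under 90% of windows were unique in 64 of the 903 peaks (7.09%) against 25 of 1275 CpG-rich peaks (1.96%), and 13 of the 64 were on chromosome 9. The consensus was found in 33 of these 64 (51.6%) and in 578 of the other 839 (68.9%). Without these peaks of both classes the difference between the classes was -2.07 points for the consensus (Fisher's exact test, p = 0.330), -35.8 for the position within 250 bp of the TSS and -14.4 for the width.

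Among the 181 sites without mismatch, those with the center nearest a TSS included Mthfd1l (mitochondrial folate metabolism, 2 bp downstream), Trappc5 (vesicle transport, 2 bp upstream), the theta-globin gene Hbq1a (16 bp downstream) and Eml1 (a microtubule-associated protein, 23 bp upstream). The peaks at Trappc5 (54.9% GC, CpG 0.969) and Hbq1a (54.3% GC, CpG 0.597) were members with GC close to the threshold. At Mthfd1l and Eml1 the TSS was an internal start of the gene. Each of these 4 peaks held 2 matches at up to 1 mismatch. At Hbq1a 71.6% of the windows were unique.

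Genes were then counted. A CpG-poor promoter peak was in reach of 920 of 22359 protein-coding genes (4.11%), and any CTCFL peak was in reach of 2512 (11.2%). There was 1 gene in reach of 872 of the 903 peaks, 11 genes were nearest to 2 of them, and 28 genes were nearest to a CpG-poor and a CpG-rich peak. The 11 genes with a pair, named after their values were seen, were Cabp1, Coq2, Fam38a, Gm10720, Gm11168, Nrtn, Pcdha11, Pde4a, Rcan2, Rgs3 and Spr-ps1. At Nrtn the centers lay 801 bp upstream and 654 bp downstream of the same TSS, with GC of 57.5 and 61.5%. At Rcan2, a regulator of calcineurin, they lay 570 bp upstream and 382 bp downstream. At Coq2, which acts in ubiquinone synthesis, they lay 31 bp upstream and 253 bp downstream of different starts.

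CpG-poor genes had a CTCFL peak at the promoter less often than CpG-rich genes. For this comparison genes outside divergent pairs were classed by the sequence around the 5′-most TSS, and any peak counted. A peak was in reach of 634 of 11775 CpG-poor genes (5.38%, 4.99 to 5.81%) and of 1528 of 8445 CpG-rich genes (18.1%, 17.3 to 18.9%), a difference of -12.7 points (-13.6 to -11.8; Fisher's exact test, two-sided, adjusted p = 5.31e-181). Olfactory and vomeronasal receptor genes, which are numerous, were left out in an alternative, and the difference was then -12.0 points. The share rose from 1.98% of the genes with observed/expected CpG under 0.2 to 5.03% from 0.2 to 0.4 and 10.2% from 0.4 to 0.6, and the 3 bins above held 17.3, 18.0 and 16.3%. A peak of the CpG-poor class was in reach of 433 of the CpG-poor genes (3.68%) and 467 of the CpG-rich genes (5.53%).

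**Figure D5:**
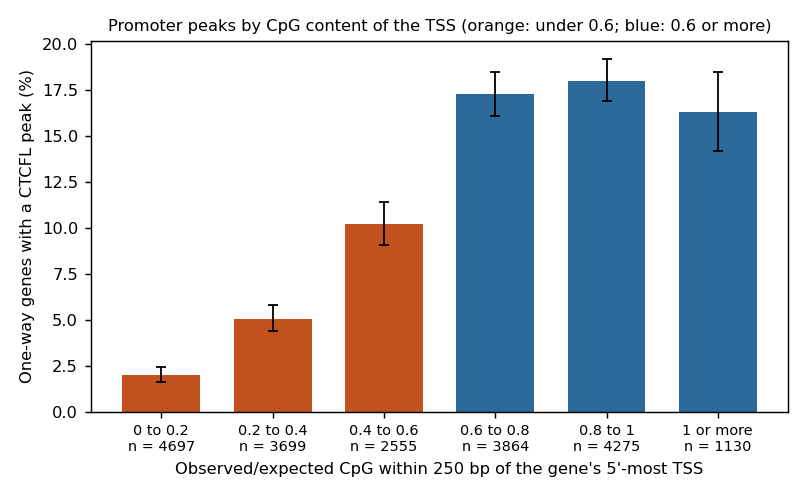
Share of one-way protein-coding genes with a CTCFL peak within -2 kb to +1 kb of a TSS (y axis, %, 95% Wilson intervals) by observed/expected CpG around the 5′-most TSS (x axis, ratio, number of genes given under each bin). The 3 orange bins under 0.6 rise from 1.98 to 10.2%, and the 3 blue bins lie between 16.3 and 18.0%.

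Short promoter elements were searched as letters at TSSs, which were the nearest ones where a group was defined by a peak. GGGCGG, the core of the Sp1 box, was present on either strand in a window that begins 250 bp before the TSS and ends 50 bp after it at 147 of 474 CpG-poor TSSs with a CpG-poor peak (31.0%). It was present at 1811 of 11141 CpG-poor one-way genes without a CTCFL peak (16.3%), at 73.9% of CpG-rich TSSs with a CpG-rich peak and at 44.0% of all protein-coding genes. This hexamer can share bases with a consensus match. It also holds a CpG, and a CTCFL peak was more frequent at CpG-poor genes with more CpG. The groups were not matched for CpG content. CCAAT was present in 36.9, 38.7, 30.8 and 37.9% of the same groups in this order. TATAAA on the strand of the gene from 40 to 21 bp before the TSS was present in 2.32, 3.74, 0.860 and 2.21%. The match is a description of the letters, with no test.

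In the gene lists the counts are set beside all genes, of which 4.11% had a CpG-poor promoter peak and 11.2% any peak. No test was made. Of 55 germ cell and meiosis genes 3 had a CpG-poor promoter peak (5.45%), and 10 had any peak (18.2%). The 3 were Sycp2, Syce2 and Tex19.1. Sycp2 and Syce2 encode parts of the lateral and the central element of the synaptonemal complex. Tex19.1 acts in the silencing of transposons in germ cells. The Sycp2 peak (482 bp, center 109 bp upstream) held the consensus without mismatch, as shown above. The Syce2 peak (444 bp) lay 597 bp upstream, with GC of 44.9% at the peak and 64.1% at the TSS. The Tex19.1 peak (348 bp) lay 136 bp upstream, and 87.2% of its windows were unique. Of 52 spermatid and sperm genes 4 had any peak (7.69%), and 1 had a CpG-poor promoter peak (1.92%), which was Odf2. Odf2 encodes a protein of the sperm tail and the centrosome. Its peak (589 bp, center 179 bp downstream of an internal start) held 3 matches at up to 1 mismatch.

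Of 26 pluripotency genes 2 had a CpG-poor promoter peak (7.69%), and 5 had any peak (19.2%). Gdf3 encodes a TGF-beta family ligand, and its peak (449 bp, center 17 bp downstream, 49.7% GC) had no match at up to 1 mismatch. Tet1 encodes an enzyme that oxidizes methylcytosine, and its peak (361 bp, 38.1% GC) lay 1462 bp upstream of an internal start, in an intron. Of 83 serine protease genes 6 had a CpG-poor promoter peak (7.23%), and 7 had any peak (8.43%). The centers at Prss38 and Prss48 lay 41 and 174 bp upstream and that at Prss27 991 bp upstream. The centers at Prss41, Prss57 and Tmprss5 lay 684, 359 and 476 bp downstream, and at Prss41 and Prss57 the TSS was an internal start of the gene. Prss41 and Prss57 held the consensus without mismatch and Prss48 with 1, whereas Prss27, Prss38 and Tmprss5 had no match at up to 1 mismatch. Observed/expected CpG in the 6 peaks was between 0.161 at Tmprss5 and 0.515 at Prss41. Prss38 and Prss50 were named after their values were seen. The peak at Prss50, a testis protease gene, had 62.9% GC and an observed/expected CpG of 0.654 and was CpG-rich.

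Of 93 claudin and cadherin genes 5 had any peak (5.38%), and 2 had a CpG-poor promoter peak (2.15%), Pcdha11 and Pcdhb15. Both are of the clustered protocadherins that diversify the surfaces of neurons. The peak at Pcdhb15 (381 bp, 41.9% GC) lay 19 bp upstream of its TSS. There were 3 peaks in reach of annotated starts of Pcdha11, with widths of 595, 237 and 223 bp, and the widest held the consensus with 1 mismatch. Of 371 zinc finger genes named Zfp 20 had a CpG-poor promoter peak (5.39%), and 46 had any peak (12.4%). Of the 20 with a CpG-poor promoter peak, Zfp526, Zfp169 and Zfp9 held the consensus without mismatch. Of 81 ribosomal protein genes 5 had a CpG-poor promoter peak (6.17%), and 15 had any peak (18.5%). For 4 of the 5 the centers lay from 164 bp upstream at Rplp0 to 414 bp upstream at Rps26. At Rpl23a the center lay 334 bp downstream. The TSSs of all 5 had an observed/expected CpG of at least 0.679. Of 121 genes for chemokines, interleukins and their receptors 8 had any peak (6.61%), and 4 had a CpG-poor promoter peak (3.31%). The 4 were Cxcl12, Il12b, Il17rc and Il17rd. Of 98 cytochrome P450 genes 6 had any peak (6.12%), and 1 had a CpG-poor promoter peak (1.02%), Cyp2d9. Of 1441 olfactory and vomeronasal receptor genes 2 had a CpG-poor promoter peak (0.139%), Olfr273 and Olfr658, and no other had any peak. None of 100 keratin genes and none of 40 Hox genes had a CpG-poor promoter peak. The genes of the last lists, from Zfp526 on, were named after their values were seen.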

How the data were processed

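V5 ChIP-seq was performed on induced CTCFL-V5-GFP ES cells (1 library), with 1 non-induced and 1 CTCF library that were not analysed here. The deposited file gives genome positions in bp, the start and end of each CTCFL peak on mm9 (start read as counted from 0), and no heights. The study describes mapping with ELAND and, for its comparisons, BOWTIE and peak calling with MACS; which of these made the deposited positions is not given in the sources used here. Sequence was read from NCBIM37, and TSSs of protein-coding transcripts from GENCODE on that build. Peaks were classed by their midpoint. A position weight matrix was refined from the most enriched 8-mer, AGGGGGCG, in 201 bp at peaks outside promoters. Peaks in which reads may map ambiguously were marked by unique 36-base windows. Shares were compared with Fisher's exact test or an exact binomial test, with Benjamini-Hochberg adjustment over 7 tests, of which that of the distance to the TSS is not given because the rule bears on it; intervals cover counting error only. Python 3.11.15, numpy 2.4.6, scipy 1.17.1, pandas 2.3.3 and pysam 0.24.0 were used, and the functions were tested on simulated data. Named were the 10 widest members, the 5 nearest a TSS with an exact match, up to 5 members of each of 5 gene lists and the 2 on each side of each threshold, and 2 peaks that met this rule are not reported here. Members, the 12 lists and the tests were chosen with earlier results of these data known. Thresholds, windows, promoter interval, pair definition, mismatches and uniqueness were varied.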

Additional observations from a re-analysis of the deposited data

How the results depend on the processing

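Of 58 alternatives, 47 left the result on its side of the test's threshold with its sign kept, or the count within 1.5 times. The number of CpG-poor promoter peaks was 581 with thresholds of 50% and 0.5, 414 when both criteria had to be met and, among alternatives added after seeing the data, 477 when the TSS had to be CpG-poor too. The consensus share of CpG-poor minus CpG-rich peaks passed Fisher's exact test at the threshold of 0.05 with composition taken within 500 bp (-6.69 points, p = 7.73e-04), with an interval of -1 kb to +500 bp (-5.09, p = 0.0284), at up to 2 mismatches (-2.88, p = 4.28e-07) and, added later, for centers within 250 bp of the TSS (-7.42, p = 0.0187). It changed sign without mismatch (2.40, Fisher's exact test, p = 0.163) and in the central 200 bp (2.73, p = 0.222). The share at the 5′-most TSS changed sign among peaks whose TSS was of their own class, also added later (-5.64, Fisher's exact test, p = 0.0246). The orientation no longer passed without mismatch (56.4%, exact binomial test, p = 0.102). The causes were not tested. Only 1 library underlies the peaks, so no pairing between libraries was possible. The comparison of peaks with their flanking windows was not tested with a pairing by peak. Without read numbers, neither depth nor strength of binding per peak could be assessed.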
